A study of Mus musculus with 6 samples.

Results

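The core and linker histone genes were described in primary cardiomyocytes of neonatal mice treated with an adenovirus that carries HMGB2 behind the cardiac troponin T (cTNT) promoter, or with the cTNT vector virus as control. HMGB2 is a high mobility group protein that binds and bends DNA in chromatin. There were 3 HMGB2 and 3 vector libraries, and all of them came from virus-treated cultures. Mouse strain, exact age, virus dose, exposure time and the species of the HMGB2 insert are not stated by the labels, and neither is the origin of the replicates. The p-values thus cover only variation among these libraries, which may be technical. The genes were taken by symbol (names beginning with H1f, H2ac, H2bc, H2af, H2ax, H2az, H3c, H3f, H4c, H4f or the older Hist forms, without pseudogenes marked -ps) and by a summed count of at least 30 over the 6 libraries. This gave 22 genes of 56691 gene rows, in 3 classes set by symbol: 6 linker genes (H1), 9 replication-dependent core genes and 7 variant genes. By symbol alone the variant class includes H3f3c, annotated as a processed pseudogene, and the antisense RNA H3f3aos.

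Nucleosomes hold DNA wrapped around a core of H2A, H2B, H3 and H4, and linker histone H1 sits where the DNA enters and leaves. Replication-dependent histone genes lie in clusters, mostly lack introns and are transcribed in S phase, and their main mRNAs end in a stem-loop bound by SLBP in place of a poly(A) tail. Variant genes such as those of H3.3 and H2A.Z are transcribed through the cell cycle into ordinary polyadenylated mRNAs and supply histones to cells that no longer replicate their DNA. Some replication-dependent genes also give polyadenylated transcripts that run past the stem-loop, mainly in differentiated cells.

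With HMGB2, 2 of the 16 histone genes that entered the test rose and 0 fell. These were the linker gene H1f2, 1.47-fold higher, and the core gene H2bc4, 1.31-fold higher, a call that was lost in 8 of 16 alternatives. Among all 15429 genes tested, 14.4% were called higher and 10.8% lower, together 25.2% in either direction, so the 12.5% of histone genes called higher was near the background. At an unadjusted p under 0.05, 4 of the 16 passed, against 36.5% of all genes tested, and H1f0 was the only one of them that was lower, while DESeq2 also called 0 lower. The groups did not overlap for 4 of the 16, against 40.5% of all genes tested. The 6 variant genes tested, among them the annotated pseudogene H3f3c, did not pass the threshold in either direction. Transcripts of most replication-dependent genes were close to absent from these libraries, with a summed count under 30 for 51 of 60 symbols of that class.

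The counts per library assigned to genes ran from 12498215 to 16618365. Hmgb2 itself was at 36.3 to 46.8 CPM (counts scaled to a common library size) with the vector and at 175.1 to 196.3 CPM with HMGB2. Vector 1 and HMGB2 3 lay apart from the other 4 libraries on the second principal component (5.77% of the variance of the 500 genes used). In both, the histone genes were mostly higher than in the other libraries of the group. In vector 1, 14 of the 16 tested were higher, with a median excess of 0.25 (log2), and in HMGB2 3 14 of 16, with a median excess of 0.27. The share over all genes was not taken, and these 2 libraries differed in other genes too. Nppa was also highest in both, while Ttn was at 832.6 CPM in vector 1 against 2217 and 2465 CPM. In HMGB2 3 Ttn was at 1273 CPM against 3101 and 2989 CPM. The cause, RNA quality included, was not tested.

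Summed levels of most cell type markers differed between the groups. The counts called in each list stand beside 14.4% of all genes tested that rose and 10.8% that fell. Of 12 cardiomyocyte markers 9 rose and 0 fell, and their summed level was 18880 to 19580 CPM with the vector and 29390 to 31260 CPM with HMGB2. Of 10 endothelial markers 0 rose and 3 fell (4739 to 4926 against 3961 to 4209 CPM), and of 10 fibroblast markers 1 rose and 2 fell (4982 to 5051 against 4439 to 4532 CPM). Smooth muscle and pericyte markers (2 of 10 rose, 3 fell) had sums of 2716 to 2911 against 2266 to 2363 CPM. Epicardial markers (0 of 6 rose, 2 fell) were at 161.9 to 183.7 against 129.4 to 140.1 CPM. Macrophage and leukocyte markers (0 of 10 tested rose, 4 fell) were at 97.9 to 128.4 against 72.5 to 86.3 CPM, and erythroid markers, with 2 of 6 at 0, reached 1.10 CPM at most. In bulk samples fewer cells of a type and less RNA per cell cannot be told apart, and the part of these shifts in the histone results was not tested.

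**Figure D1:**
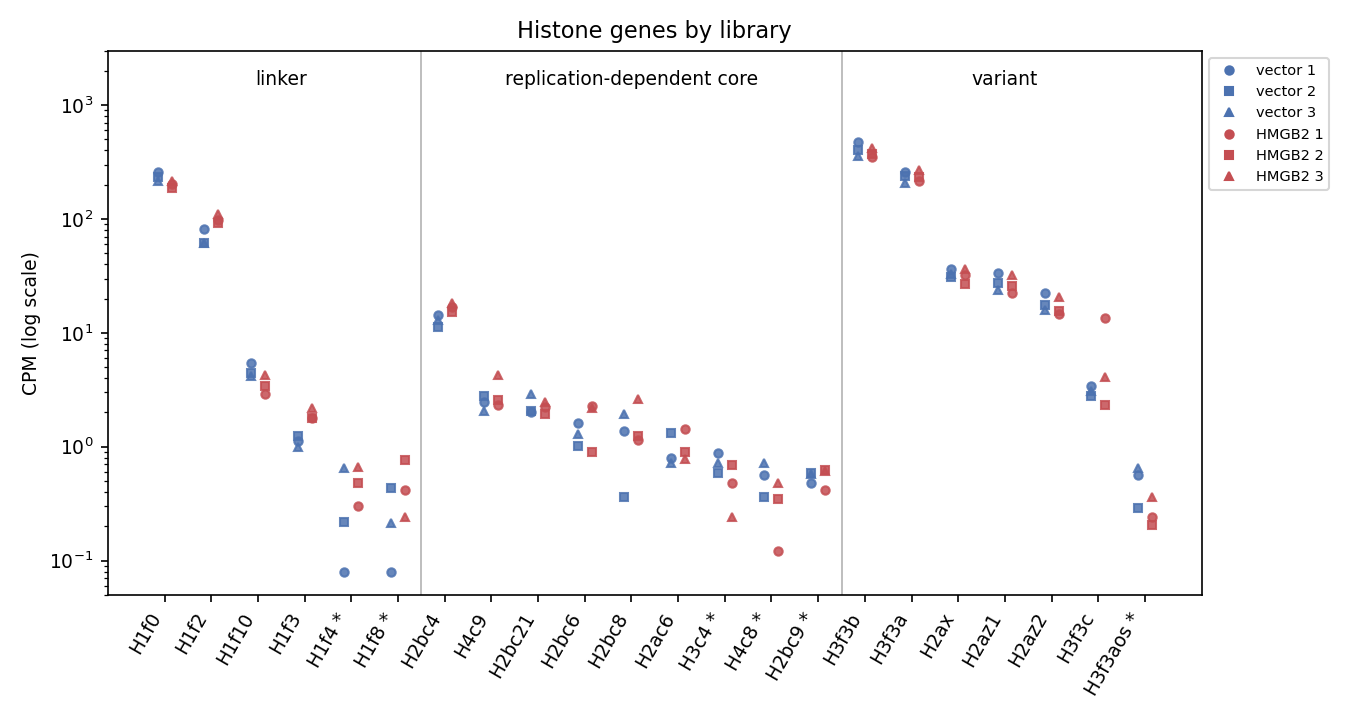
CPM of the 22 histone genes in each library on a log scale, by class, with vector libraries in blue and HMGB2 libraries in red (symbols mark the replicate number, asterisks the 6 genes that did not enter the test). H3f3b, H3f3a, H1f0 and H1f2 stand above the rest, and only H2bc4 among the replication-dependent core genes exceeds 10 CPM.

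The transcript ends followed the classes only in part. The stem-loop is shown here because it takes the place of the poly(A) tail in the main mRNAs of replication-dependent genes. In the transcripts of GENCODE M21 (GRCm38), the histone stem-loop motif (16 bases, with the positions that vary between histone genes left free), searched on the transcript strand after the stop codon, was found in 93 of 21951 coding genes (0.424%). It was found in 7 of 9 replication-dependent core genes of the set and in 3 of 6 linker genes (H1f2, H1f3 and H1f4). Of the 5 variant genes with a coding transcript only H2ax held it. The 11 genes carried 4 forms of the sequence, with the paired stem in capitals and the loop in lower case:
H1f2, H1f3, H1f4, H2ac6, H2bc6, H2bc8, H2bc9 and H3c4: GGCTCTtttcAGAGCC
H4c8: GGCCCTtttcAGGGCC
H4c9: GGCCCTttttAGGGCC
H2ax: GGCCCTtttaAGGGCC

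In H1f2 the stem-loop began 24 bases after the stop codon and the annotated transcript ran on for 840 bases, with an AATAAA poly(A) signal after the stop. Of the 11 genes, 10 had an annotated transcript that ran at least 100 bases past the stem-loop, H4c8 (46 bases) being the exception. Among the 34 genes with a stem-loop and a summed count under 30, 12 had such a longer transcript and 22 did not. Over all 45 genes the median summed count was 22.5 where the transcript ran at least 100 bases further and 5 where it stopped earlier. These are descriptions, since the set was chosen by its counts, the counts are not scaled by length, and the annotation rests on transcripts seen elsewhere. H2bc4 and H2bc21 had no match in their annotated transcripts, which says only that these letters are not in those models, and both hold AATAAA after the stop codon. The model of H2bc4 has 2 exons.

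**Figure D2:**
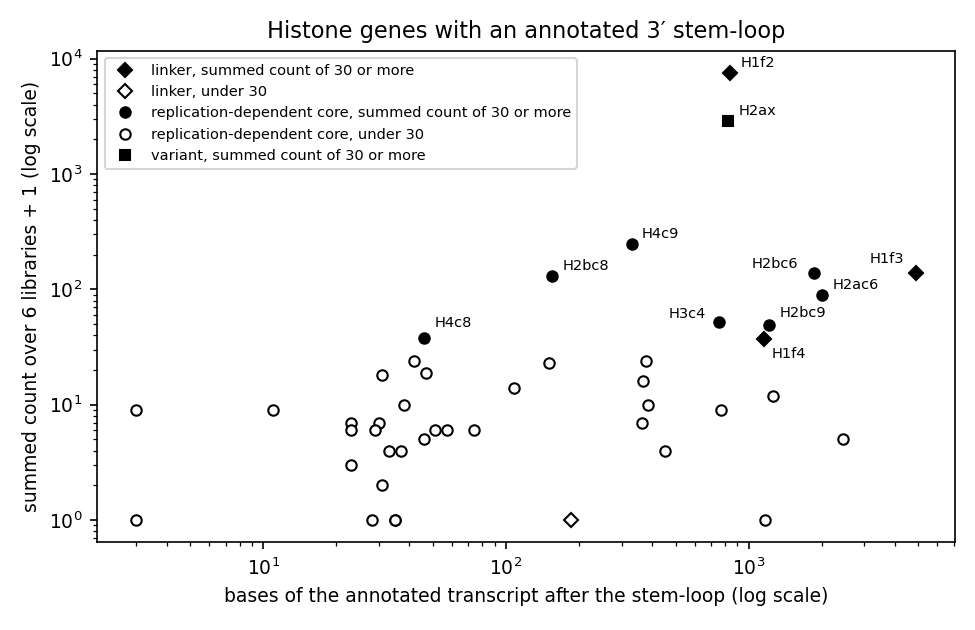
Summed count over the 6 libraries plus 1 against the number of transcript bases annotated after the stem-loop, both on log scales, for the 45 histone genes with a stem-loop match (filled symbols: summed count of 30 or more; shapes: class). Of the 11 filled points 10 lie at 100 bases or more, and H1f2 and H2ax are the highest. Counts are not scaled by length.

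RNAs known to lack a poly(A) tail were nearly absent as well. The 16 such RNAs of a fixed list (among them Rn7sk, Rmrp, Rpph1, Terc and the Y RNAs, in 17 rows) held 56 counts in all 6 libraries together, and 7 rows were at 0. The labels do not say whether poly(A) RNA was selected, and the part of such a step in these low counts was not tested. Taken over all 60 symbols, this class held 2592 counts, 0.00295% of all counts. Its summed level was 29.8, 23.8 and 26.6 CPM in vector 1, 2 and 3 and 31.1, 27.9 and 36.4 CPM in HMGB2 1, 2 and 3, and the groups overlapped. The rule's threshold fell in this low range, with H1f8 (32 counts), H3f3aos (33) and H1f4 (36) just inside and H2bc23 (24), H2ac7 (23) and H3c15 (23) just outside.

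Per length, the variant and linker genes made up nearly all of the histone signal. On the deposited FPKM scale (fragments scaled by gene length and library size), variant genes held 57.6% to 59.7% of the summed FPKM of the 22 genes, linker genes 36.3% to 37.0% and replication-dependent core genes 3.99% to 5.96%, over all 6 libraries. The variant share includes the annotated pseudogene H3f3c, at 33.1 FPKM in HMGB2 1 and 5.71 to 10.02 FPKM in the other libraries. Shares without H3f3c were not taken, so how alike the libraries are in these shares rests in part on it. H3f3b led at 118.4 to 157.8 FPKM, ahead of H1f0 at 90.8 to 126.0 FPKM, with overlapping ranges. H3f3a (58.4 to 78.1 FPKM) and H1f2 (38.8 to 72.2 FPKM) followed and overlapped each other. H2ax (19.5 to 26.5 FPKM) came next, overlapping neither neighbour. H2az1 (12.6 to 18.8), H2bc4 (9.58 to 16.1) and H2az2 (8.88 to 13.8 FPKM) overlapped in this order. Every other gene had a median under 8 FPKM.

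Among linker genes, H1f2 rose (ENSMUSG00000036181, the older Hist1h1c, encoding H1.2, GRCm38 chromosome 13, 23738808 to 23740367, 1 exon). It was at 81.9, 61.6 and 61.5 CPM in the vector libraries and at 97.0, 92.3 and 111.1 CPM in the HMGB2 libraries. All HMGB2 libraries lay above all vector libraries, which held for 21.6% of the genes tested, and vector 1 was the highest of its group. The means were 68.3 ± 11.75 and 100.1 ± 9.8 CPM (SD, n = 3 each), a log2 difference of 0.55 with SE 0.12 (adjusted p = 0.00994, edgeR). No other gene shared a stretch of 100 bases at 95% identity with its transcript. The call was lost without vector 2 (edgeR adjusted p = 0.0539) and held in the other 15 of 16 alternatives, among them without vector 1 and HMGB2 3 (log2 fold change 0.62).

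H1f0, the linker gene whose product accumulates in differentiated, non-dividing cells, went the other way without passing the threshold (ENSMUSG00000096210, GRCm38 chromosome 15, 79028450 to 79030504, 1 exon). It was at 259.6, 233.3 and 216.6 CPM with the vector and at 204.3, 186.5 and 213.5 CPM with HMGB2. All HMGB2 libraries lay below all vector libraries, as for 18.9% of genes tested, but HMGB2 3 and vector 3 were close. The difference was -0.23 (log2) with SE 0.09 (adjusted p = 0.0867, edgeR). Without vector 1 and HMGB2 3 it was -0.20 and past the threshold (edgeR adjusted p = 0.00117), and in the other 15 alternatives it was not past it.

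The ratio of these linker transcripts was also taken within each library, where the scaling of library sizes cancels. For every count of H1f0 there were 0.315, 0.264 and 0.284 counts of H1f2 in vector 1, 2 and 3, and 0.475, 0.495 and 0.520 in HMGB2 1, 2 and 3. The ratio was 0.288 ± 0.026 against 0.4965 ± 0.023 (SD, n = 3 each), 1.73-fold higher with HMGB2 and without overlap. A two-sided exact permutation test gave p = 0.1, the smallest that 3 against 3 samples allow, and the ratio was chosen after its values were seen. Over 7.9% of its transcript H1f0 is shared with Gm49544 on the other strand, which held 9 counts against 19085 for H1f0. Reads of that stretch cannot be told apart if strand was not used. The summed level of the 6 linker genes was 284.0 to 348.2 CPM with the vector and 285.3 to 332.0 CPM with HMGB2, with overlapping groups.

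**Figure D3:**
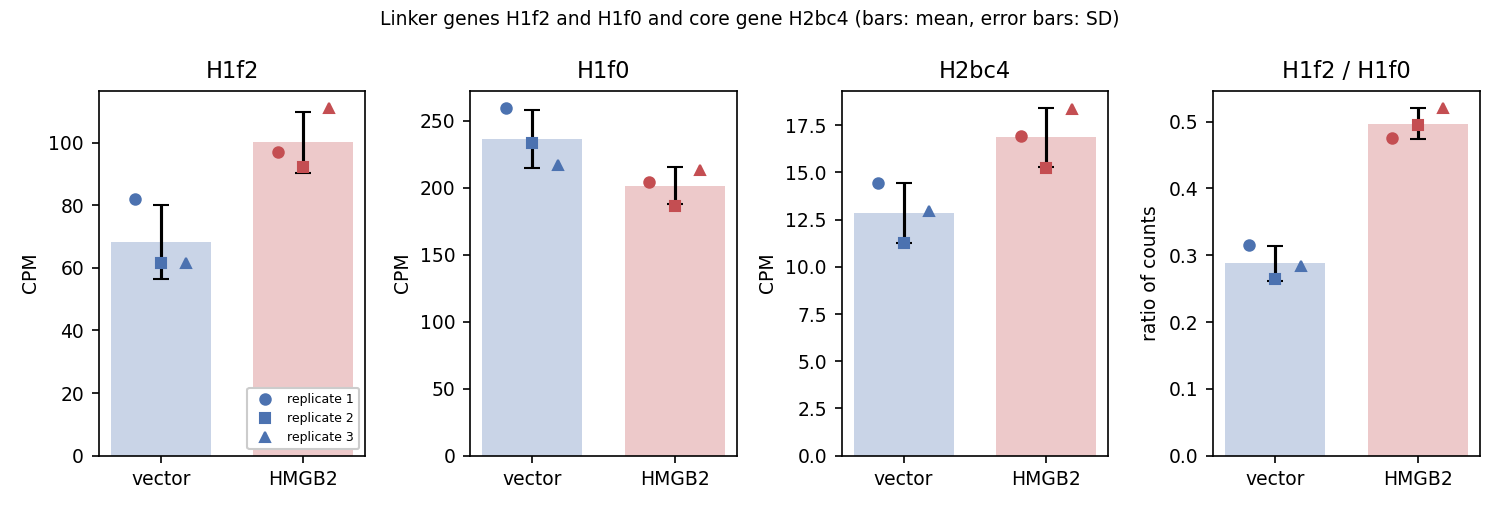
CPM of H1f2, H1f0 and H2bc4 and the ratio of H1f2 to H1f0 counts in each library (points), with the group mean (bar) and SD (error bar), n = 3 each. The ratio is 0.264 to 0.315 in the vector libraries and 0.475 to 0.520 in the HMGB2 libraries.

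The other linker genes were much lower. H1f3 (the older Hist1h1d), a clustered replication-dependent linker gene, was at 1.12, 1.242 and 1.002 CPM with the vector and at 1.80, 1.79 and 2.18 CPM with HMGB2. These rest on 14, 17 and 14 counts against 30, 26 and 36 counts. The groups did not overlap, and the log2 fold change of 0.78 (SE 0.26) did not pass (adjusted p = 0.0583, edgeR), and it did not in any of the 16 alternatives. H1f10, which encodes the divergent linker H1.10, was at 5.45, 4.46 and 4.15 CPM with the vector and at 2.88, 3.45 and 4.30 CPM with HMGB2. Its groups overlapped through HMGB2 3, and the difference was -0.40 (log2) with SE 0.21 (adjusted p = 0.198, edgeR). It overlaps Gm47286 on the same strand and Gm5577 on the other, so its counts are uncertain. H1f4 (1, 3 and 9 counts with the vector and 5, 7 and 11 with HMGB2) and the oocyte linker gene H1f8 (1, 6 and 3 against 7, 11 and 4 counts) did not pass the filter on low counts. H1f4 and H2bc6 share exon positions on the same strand.

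The promoters of H1f2 and H1f3, which lie in the chromosome 13 cluster, and of H1f0, which does not, are shown because H1f2 and H1f0 had log2 fold changes of opposite sign. They are from RefSeq on GRCm38.p6, run from 250 bases before to 50 bases after the start, and matched 18 of the 22 genes. No entry was found for H2bc4, H2bc21, H2ax and H3f3aos. Capitals mark 4 motifs, searched on both strands without mismatches and not overlapping in the promoters shown. The H1 box AAACACA was found in 7.18% of all 32851 promoters. The CCAAT motif was found in 37.4% of them, the TATAAA box in 13.6%, and the octamer of H2B promoters, ATTTGCAT, in 1.74%. The RefSeq start lies 238 bases upstream of the GENCODE start in H1f0, 155 bases downstream in H1f10 and 1770 bases downstream in H1f3.
H1f2, chr13:23738557-23738856, plus strand: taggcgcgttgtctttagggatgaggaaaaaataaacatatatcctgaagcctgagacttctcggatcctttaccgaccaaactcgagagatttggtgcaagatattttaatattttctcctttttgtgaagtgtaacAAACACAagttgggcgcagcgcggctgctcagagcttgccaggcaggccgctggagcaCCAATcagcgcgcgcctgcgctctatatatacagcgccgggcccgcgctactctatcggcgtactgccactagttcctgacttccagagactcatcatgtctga
H1f3, chr13:23554782-23555081, plus strand: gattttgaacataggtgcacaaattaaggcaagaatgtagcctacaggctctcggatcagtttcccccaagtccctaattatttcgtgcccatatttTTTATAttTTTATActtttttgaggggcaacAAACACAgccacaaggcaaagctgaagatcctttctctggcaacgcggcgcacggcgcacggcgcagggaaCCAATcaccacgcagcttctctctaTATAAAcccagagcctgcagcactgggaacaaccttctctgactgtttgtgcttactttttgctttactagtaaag
H1f0, chr15:79027962-79028261, plus strand: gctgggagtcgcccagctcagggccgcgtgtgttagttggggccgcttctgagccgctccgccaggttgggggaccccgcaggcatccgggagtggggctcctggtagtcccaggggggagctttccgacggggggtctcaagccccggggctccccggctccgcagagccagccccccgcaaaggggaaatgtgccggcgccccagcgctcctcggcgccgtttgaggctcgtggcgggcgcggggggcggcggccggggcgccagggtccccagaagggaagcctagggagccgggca

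In H1f2 and H1f3 the H1 box stood 112 and 122 bases before the start, and CCAAT 54 and 51 bases before it. Of the 5 clustered linker genes H1f1 to H1f5, low ones included, 4 held the H1 box and 5 held CCAAT. In the RefSeq windows of H1f0 and H1f10 none of the 4 motifs was found, and H1f8, also outside the cluster, held CCAAT 2 times. The H1f0 window ended at 79028261, before the GENCODE start at 79028450. The bases just before that start were thus not searched, and the absence in H1f0 does not extend to them. A match is a description of letters and no evidence of a bound factor.

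Of the replication-dependent core genes, 6 entered the test, 1 rose and 0 fell. Their median difference was 0.36 (log2), beside -0.0022 over all genes tested. That median leaves out the 3 genes of the class that the filter on low counts removed. With all 22 histone genes in the fit, these were at -0.78 (H4c8), -0.63 (H3c4) and 0.0001 (H2bc9) in log2 terms, none past the threshold. H2bc4 (ENSMUSG00000018102, the older Hist1h2bc, encoding H2B, GRCm38 chromosome 13, 23684199 to 23692908) was at 14.4, 11.25 and 12.95 CPM with the vector and at 16.95, 15.2 and 18.4 CPM with HMGB2. The groups did not overlap. The means were 12.9 ± 1.59 and 16.9 ± 1.56 CPM (SD, n = 3 each), a log2 difference of 0.39 with SE 0.12 (adjusted p = 0.0462, edgeR). Leaving out vector 2 ended the call (adjusted p = 0.161, edgeR), as did leaving out vector 3 (0.11), or any of HMGB2 1 (0.12), HMGB2 2 (0.0571) and HMGB2 3 (0.121), the replicate block (0.0818), and DESeq2 (0.103). Of its transcript, 33.0% is 99.5% identical to Hist1h2br, which is 1 of 12 genes sharing stretches of 100 bases or more at 95% or more, with 390 counts together against 1321 for H2bc4.

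H2bc4 lies head to head with H2ac6, the older Hist1h2ac. The promoter window of H2ac6 covers the stretch between them and reaches past the annotated start of H2bc4, so it is shown for both, read on the minus strand with the motifs above in capitals. It holds the octamer once and CCAAT 3 times, with TATAAA 32 bases before the start of H2ac6.
H2ac6, chr13:23683910-23684209, minus strand: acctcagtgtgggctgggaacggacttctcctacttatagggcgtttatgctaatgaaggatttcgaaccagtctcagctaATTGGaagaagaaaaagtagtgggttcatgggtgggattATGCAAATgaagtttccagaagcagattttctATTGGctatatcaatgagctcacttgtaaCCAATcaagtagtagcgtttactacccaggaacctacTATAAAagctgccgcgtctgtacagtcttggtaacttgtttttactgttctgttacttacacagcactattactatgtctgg

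H2ac6, which encodes H2A, was at 0.802, 1.31 and 0.716 CPM with the vector and at 1.44, 0.896 and 0.788 CPM with HMGB2. Its groups overlapped, and the difference was 0.14 (log2) with SE 0.39 (adjusted p = 0.826, edgeR). Its per-length level (0.29 to 0.58 FPKM) was below that of H2bc4 in every library. The octamer was found in 7 of 15 H2B promoters matched.

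The other core genes gave values near the limit of detection. H4c9, an H4 gene, was at 2.07 to 2.78 CPM with the vector and at 2.34, 2.55 and 4.30 CPM with HMGB2 (log2 difference 0.33 with SE 0.28, and adjusted p = 0.433 in edgeR). H2bc21, an H2B gene of the chromosome 3 cluster, had a log2 fold change of -0.07 (SE 0.25). H2bc6 (0.47, SE 0.38) and H2bc8 (0.45, SE 0.52) were not past the threshold and had overlapping groups. H2bc8 was at 0.365 CPM in vector 2 and at 2.61 CPM in HMGB2 3, from 5 and 43 counts. H3c4, H4c8 and H2bc9 did not enter the test, at group means of 0.317 to 0.727 CPM. Most of these genes have near copies in the cluster, and the sharing of reads between copies is not recorded in the sources used here.

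**Figure D4:**
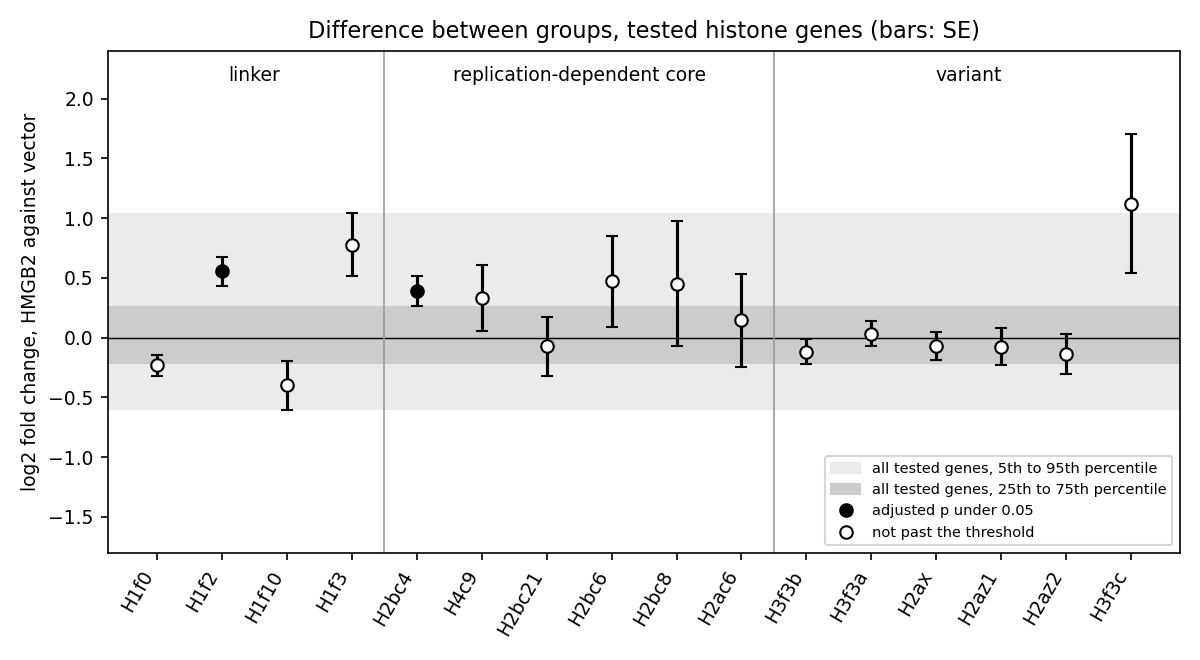
Log2 fold change of HMGB2 against vector with its SE for the 16 histone genes tested, by class (filled: adjusted p under 0.05), over the middle ranges of all 15429 genes tested (grey bands, 25th to 75th and 5th to 95th percentile, the latter from -0.60 to 1.04). Filled points are H1f2 at 0.55 and H2bc4 at 0.39, and 5 of the 6 variant genes lie within 0.14 of 0.

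Among variant genes, 6 entered the test, 0 rose and 0 fell (edgeR), and none had an unadjusted p under 0.05. With DESeq2 0 of them passed the threshold as well. Their median log2 fold change was -0.07, and the groups overlapped for each. H3f3b and H3f3a encode the same protein, H3.3, the replacement H3 that is deposited outside replication. H3f3b was at 470.8, 402.5 and 360.5 CPM with the vector and at 352.0, 369.2 and 416.2 CPM with HMGB2, a log2 difference of -0.12 with SE 0.11 (adjusted p = 0.474, edgeR). H3f3a was at 257.0, 238.8 and 206.3 CPM and at 215.5, 233.3 and 269.8 CPM, a log2 difference of 0.03 with SE 0.11 (adjusted p = 0.855, edgeR). For both genes the highest library of each group was the one that stood apart, vector 1 or HMGB2 3.

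The ratio of H3f3a to H3f3b counts was 0.546, 0.593 and 0.572 with the vector and 0.612, 0.632 and 0.648 with HMGB2. The groups did not overlap, the means differed 1.11-fold, and the two-sided exact permutation test gave p = 0.1, again the smallest possible, for a ratio chosen after its values were seen. H3f3a has exons under H3f3aos and Gm17275 on the other strand, and reads of the pair cannot be told apart if strand was not used. Stretches of 100 bases at 95% identity are shared with 19 other genes by H3f3a (4988 counts together) and with 3 by H3f3b (306 counts). This leaves the ratio uncertain. H3f3aos is itself in the set by its symbol only. It is annotated as an antisense RNA and held 33 counts.

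H3f3c is annotated as a processed pseudogene, 99.0% identical to H3f3a over its full length. It was at 3.45, 2.78 and 3.08 CPM with the vector and at 13.6, 2.34 and 4.06 CPM with HMGB2. HMGB2 1 alone stood high, with 226 counts against 34 and 67 in the other HMGB2 libraries. The log2 difference of 1.12 (with SE 0.58 and adjusted p = 0.204 in edgeR) became 0.07 without that library. H3f3a itself was lowest of the HMGB2 libraries there, at 215.5 CPM.

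The H2A variants were alike in showing no call. H2ax, whose product is phosphorylated at DNA breaks and which carries a stem-loop like the replication-dependent genes, was at 36.6, 30.9 and 32.7 CPM with the vector and at 32.1, 27.0 and 36.2 CPM with HMGB2 (log2 difference -0.07 with SE 0.12, and adjusted p = 0.718 in edgeR). H2az1 and H2az2 encode the H2A.Z proteins found at promoters. H2az1 was at 33.4, 27.6 and 23.6 CPM against 22.4, 26.0 and 31.9 CPM (log2 fold change -0.07, SE 0.16), and H2az2 at 22.5, 17.5 and 16.03 CPM against 14.5, 15.5 and 20.7 CPM (-0.14, SE 0.17). Of the H2az1 transcript 63.8% is 99.9% identical to one of Tmcc1, which leaves its count uncertain. A missed threshold does not show that these genes were equal, and the SE sets what could have been seen.

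Grouped by the stem-loop, 6 of 7 tested coding genes with the sequence had a positive log2 fold change (median 0.45) and 2 of 8 without it (median -0.10), beside 49.8% of all genes tested. In each of these groups 1 gene passed the threshold. This grouping was made after the values were seen, and H2bc8, H2ac6 and H2ax among the 7 changed sign when a library was left out. It also leaves out coding genes that did not enter the test. With all 22 histone genes in the fit, H4c8 (-0.78), H3c4 (-0.63), H2bc9 (0.0001) and H1f4 (0.58) carry the sequence. H1f8 (0.89) does not.

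Histone genes outside the symbol rule, chosen after their values were seen, gave 1 call. H2aj, which encodes the variant H2A.J, went from 27.3, 19.4 and 19.3 CPM with the vector to 13.7, 11.9 and 16.7 CPM with HMGB2. It fell by 0.64 in log2 terms, with SE 0.17 (adjusted p = 0.023, edgeR), without overlap between groups, and the call was lost without HMGB2 1 (edgeR adjusted p = 0.0837) or HMGB2 2 (0.0895). Macroh2a1 and Macroh2a2, the macroH2A genes, differed by -0.05 (SE 0.07) and -0.14 (SE 0.10) in log2 terms, short of the threshold. The centromeric H3 gene Cenpa was at 57.8 ± 3.25 CPM with the vector and 56.9 ± 1.24 CPM with HMGB2 (SD, n = 3 each).

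Genes that make histone mRNA ends and switch on the clusters showed changes in both directions. Of 16 genes of this list, 2 rose (12.5%) and 3 fell (18.8%) in edgeR, with a median log2 fold change of -0.05. Over all genes tested 14.4% rose and 10.8% fell, so these counts were not far from the background. Lsm11 and Lsm10, subunits of the U7 particle that cuts the histone pre-mRNA, rose by 0.54 (10.05 ± 1.65 to 14.6 ± 0.734 CPM, edgeR adjusted p = 0.0177) and 0.43 on the log2 scale (0.043), the latter chosen after its values were seen. Srrt (ARS2), a partner of the cap-binding complex, fell by 0.34 (133.5 ± 2.37 to 105.5 ± 3.63 CPM, edgeR adjusted p = 0.00513), and Cstf2 by 0.30 and the Cajal body gene Coil by 0.49. Slbp (45.9 ± 2.92 and 50.3 ± 3.94 CPM) and the cluster activator Npat (51.9 ± 7.52 and 59.9 ± 4.21 CPM), also chosen after their values were seen, did not pass. Without vector 3 or HMGB2 2, 0 of the list rose, and without vector 2, HMGB2 1 or HMGB2 3, 1 rose. With vector 2, vector 3 or any HMGB2 library left out, 2 fell, and with neither vector 1 nor HMGB2 3, 5 fell. With the replicate block 0 rose and 1 fell, and DESeq2 and upper-quartile factors each gave 1 that rose. Lsm11 lost its call without vector 3, without HMGB2 2 and with the block (adjusted p = 0.0584, edgeR), and Cstf2 with the block (0.0711). Coil was lost in 7 and Lsm10 in 8 of 16 alternatives, among them without any 1 library but vector 1, with the block and with DESeq2.

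Among 30 genes of histone chaperones and variant deposition, 2 rose (6.67%) and 5 fell (16.7%), with a median log2 fold change of -0.0088. The shares over all genes tested were 14.4% and 10.8%. Daxx, an H3.3 chaperone that acts with ATRX at heterochromatin, rose 1.76-fold (39.2 ± 4.29 to 69.0 ± 2.82 CPM, edgeR adjusted p = 0.000218), and Hira, an H3.3 chaperone of active genes, fell by 0.42 on the log2 scale (21.3 ± 1.93 to 15.9 ± 1.05 CPM, edgeR adjusted p = 0.0182). Npm1, a nucleolar histone chaperone, fell by 0.77 (635.1 ± 66.2 to 372.0 ± 30.2 CPM, edgeR adjusted p = 0.000386), and Ruvbl2, an ATPase of the H2A.Z exchange complexes, by 0.58 (edgeR adjusted p = 0.00205). The others, chosen after their values were seen, were Asf1b, an S phase chaperone of H3 and H4, which rose by 0.36, and Ruvbl1 and Nap1l1, which fell by 0.35 and 0.36. Ruvbl1 was called in 6 of 16 alternatives, and Asf1b and Nap1l1 in 10 each, with DESeq2 losing Ruvbl1 (adjusted p = 0.0629) and Asf1b (0.0634). Daxx, Npm1 and Ruvbl2 kept their calls in all 16 alternatives. Hira lost its call without vector 2, HMGB2 1 or HMGB2 2 and with the replicate block (adjusted p = 0.0569, edgeR). Leaving out vector 2, HMGB2 1 or HMGB2 2 brought those that fell down to 2. With neither vector 1 nor HMGB2 3 in the fit, 10 fell and 4 rose. With vector 2, vector 3, HMGB2 1 or HMGB2 3 left out, and with DESeq2, 1 rose. The replicate block gave 1 that rose and 2 that fell, and limma on FPKM gave 3 that fell.

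Of 31 S phase genes, 7 rose (22.6%) and 2 fell (6.45%), with a median log2 fold change of 0.08. Of 18 mitosis genes 0 rose and 3 fell (16.7%), with a median of -0.09. The shares over all genes tested were 14.4% that rose and 10.8% that fell. Ccne1 and Ccne2, the cyclins that act with CDK2 to start S phase and phosphorylate NPAT, were 2.06- and 2.11-fold higher, and Gins3, a subunit of the replicative helicase, 1.95-fold higher. Tyms fell by 0.44 on the log2 scale. Leaving out vector 3, HMGB2 2 or HMGB2 3 brought the S phase genes that rose to 4, as did the replicate block. Those that fell came to 1 when any 1 library other than HMGB2 3 was left out, and also with DESeq2, library totals, upper-quartile factors, the looser filter, the replicate block and limma on FPKM. With neither vector 1 nor HMGB2 3 in the fit, 11 S phase genes rose, and 6 mitosis genes fell and 1 rose. The 3 mitosis genes, Incenp, Cenpf and Kif23, fell by 0.25 to 0.38, and at most 1 of them was called without vector 2, vector 3 or any HMGB2 library, with limma on FPKM, or with the replicate block, which called 0. These transcripts cannot be assigned to cardiomyocytes in a bulk sample.

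**Figure D5:**
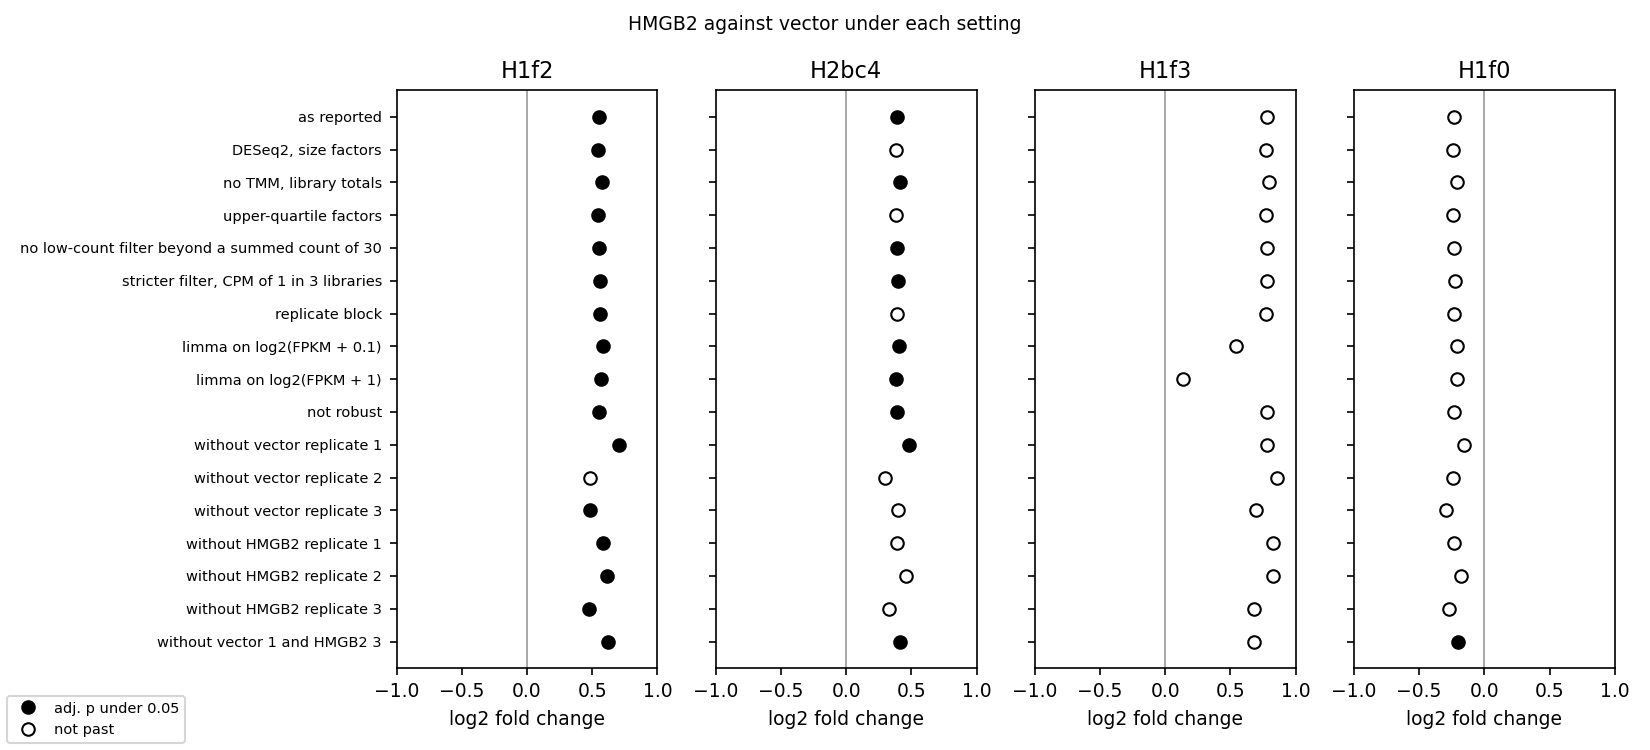
Log2 fold change of H1f2, H2bc4, H1f3 and H1f0 as reported and in each of 16 alternatives (filled: adjusted p under 0.05). H1f2 is open only without vector 2, H2bc4 is open in 8 of the 16 alternatives, H1f3 is open in all of them, H1f0 is filled only without vector 1 and HMGB2 3, and each gene keeps its sign.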

How the data were processed

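The authors deposited raw counts per Ensembl gene and FPKM values for the same 6 libraries, per the file headers. Per the submitters' processing notes, the tools were HISAT2 2.2.1 and StringTie 1.3.3b, with HTSeq 0.6.1 and FastQC 0.10.1, on mm10, with no roles given. Per the labels' protocols, TRIzol was used on total RNA and a VAHTS Universal V5 kit for the libraries. How strand and multiply matching reads were counted is not stated. Columns with short names were matched to samples by group abbreviation and replicate number.

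Counts were tested in edgeR 4.0.16 (R 4.3.3): filterByExpr (minimum count 10, minimum total 15), TMM (trimmed mean of M values) library sizes, a quasi-likelihood fit, robust, on group alone, and Benjamini-Hochberg adjustment over all 15429 genes tested, with a threshold of 0.05. SE was taken from the log2 fold change and its F statistic. On simulated counts of the HMGB2 and vector comparison (15177 genes in the fit), the test recovered 58.2% of 67 genes set to 1.5-fold and 88.1% of 67 set to 2-fold. Far fewer genes were changed in the simulation than the 25.2% called here, and they were drawn only from genes above a minimum mean count. These rates are thus not the power for the histone genes, many of which had low counts. Positions, transcripts and overlaps are from GENCODE M21 on GRCm38, matched by Ensembl identifier because the positions in the table differ from that build. Near copies were sought with blastn 2.17.0 (at least 95% identity over 100 bases).

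Values by library are given for every gene past the threshold, the 10 genes of highest mean and each linker gene tested. From each of the 4 histone and cell cycle lists up to 4 genes past the threshold were named, or 2 of highest mean where fewer than 2 passed, and marker lists are given by sums and counts. The members and lists were chosen with earlier results of these data known. Alternatives were DESeq2 1.42.0, other scalings and filters, limma 3.58.1 on log2 FPKM, a replicate block and libraries left out. No replicates agreed within sampling noise (lowest chi-square over its degrees of freedom 2.008).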

Additional observations from a re-analysis of the deposited data

How the results depend on the processing

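The count of histone genes that rose (2) was 1 with DESeq2, with upper-quartile factors and with the replicate block, and 0 to 2 with 1 library left out. The count that fell (0) was 1, H1f0, without vector 1 and HMGB2 3 together, so the linker genes that fell went from 0 to 1. Linker genes that rose numbered 0 to 1 with a library left out, and replication-dependent core genes 0 to 1, the latter also 0 with DESeq2, upper-quartile factors and the replicate block. For all genes the replicate block gave 1459 higher and 754 lower against 2224 and 1662, leaving out a library gave 866 to 1960 lower, and 2986 were lower without vector 1 and HMGB2 3. The same-numbered libraries did not deviate together (correlations of -0.397, 0.293 and -0.46). The largest correlation, 0.615, was that of vector 1 with HMGB2 3, the libraries that stand apart. As these also enter the values for numbers 1 and 3, the check cannot settle whether the numbers mark pairs. The labels do not call them pairs, and the main fit did not take them as such.

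Signs changed for 8 genes, none of them past the threshold, and the cause was not tested. With 1 library left out, log2 fold changes ran from -0.2189 to 0.0637 for H2az1, -0.3102 to 0.0167 for H2az2, -0.1708 to 0.0347 for H2ax, -0.0335 to 0.9684 for H2bc8, -0.0575 to 0.1106 for H3f3a, -0.1658 to 0.1291 for H2bc21, -0.1631 to 0.4613 for H2ac6 and -0.0698 to 0.0056 for Cenpa. With limma on log2 FPKM, Cenpa was at 0.0001 and 0. Of the 16 histone genes tested, 9 kept their sign and 13 their side of the threshold in all 16 alternatives (15 for H2ac6, which the stricter filter removed). With all 22 histone genes in the fit, 2 rose and 0 fell. The 6 genes that this added, with summed counts of 32 to 51, did not pass.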
